A study of Mus musculus with 6 samples.

Results

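The 70 replication-dependent histone genes of the mouse were followed in primary uterine stromal cells with and without Pbrm1, which encodes PBRM1, the bromodomain subunit that defines the PBAF form of the SWI/SNF chromatin remodeller. Members were all genes of the deposited count table whose symbol starts with Hist1h, Hist2h, Hist3h or Hist4h, out of 54232 genes. They comprised 6 H1, 20 H2A, 19 H2B, 12 H3 and 13 H4 genes, of which 67 are annotated as protein coding and 3 as pseudogenes. Cells came from uteri of mice aged 8 to 12 weeks on day 4 of pregnancy by the labels, which describe the mice as pseudopregnant in the protocol. There were 3 WT and 3 Pbrm1 cKO libraries. Pbrm1 cKO mice carry Pbrm1 fl/fl and PR-IRES-cre, so Cre acts in every cell lineage that expresses the progesterone receptor. The controls are labelled WT, and the study describes Pbrm1 fl/fl littermates as controls. Horns were pooled, 5 to 10 to a preparation. The digested cells were plated for 4 h, given fresh medium and washed 2 h later for sample preparation. The labels do not say whether same-group libraries came from separate animals, and the study calls its replicates of these cells biological. The p-values measure the spread between these libraries, each made from pooled horns.

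Replication-dependent histone genes are transcribed mostly in S phase, when the core histones H2A, H2B, H3 and H4 and the linker histone H1 must be made together with new DNA. Their mRNAs usually lack introns and a poly(A) tail. They end just after a conserved stem-loop, which is bound by SLBP and cut with the help of the U7 snRNP. Some of these genes also make longer polyadenylated transcripts in cells that have stopped dividing, and Hist1h1c, Hist1h2bc and Hist2h2be are known examples.

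Total counts per library ranged from 13253575 to 18338667, and the members took 4583 to 4997 counts in WT and 2846 to 3787 in Pbrm1 cKO. That is 0.0331% to 0.0366% of all counts in WT and 0.0192% to 0.0246% in Pbrm1 cKO. Pbrm1 itself, the check of the labels, had normalized counts of 1354, 1385 and 1677 in WT and 397, 459 and 451 in Pbrm1 cKO (log2 fold change -1.76 ± 0.13 (SE), adjusted p = 5.19e-40, DESeq2). How the libraries were made bears on these genes. The labels describe priming with both random and poly(T) primers on total RNA, whereas the study's methods describe mRNA purification, and it was not settled here which applies. A 29-gene list of RNAs without a poly(A) tail, such as Rn7sk and Rpph1, stood at 28.9% of the WT mean in summed normalized count, with 14 of 21 tested genes called lower and none higher, and it ranged from 205615 to 250904 in WT and from 43213 to 95253 in Pbrm1 cKO. The part of this in the histone results was not tested. Leukocyte markers moved too: 13 of 14 tested were called higher, and their summed normalized count ranged from 4245 to 9136 in WT and from 37010 to 38395 in Pbrm1 cKO, with none of the 16 listed genes at 0 in all libraries. Of 14 stromal markers, 7 were called lower and 1 higher, and all were detected. Of 17 tested epithelial markers 6 were called higher and none lower, with sums of 2391 to 4552 in WT and 5951 to 6121 in Pbrm1 cKO. Of 10 tested smooth muscle markers 5 were called lower and none higher. Of 12 endothelial markers 2 were lower and 1 higher, with a median log2 fold change of -0.76, and their sum stood at 59.9% of WT and ranged from 3286 to 6621 in WT and from 2974 to 3537 in Pbrm1 cKO. These counts stand beside 15.2% lower and 15.9% higher over all genes tested, and those of the endothelial list are near these shares. WT replicate 1 had the lowest leukocyte, epithelial and endothelial sums of its group. The part of these cell-type markers in the histone results was not tested, and in bulk RNA fewer cells of a type and less RNA per cell cannot be told apart.

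The stem-loop is the sequence that marks the canonical histone mRNA end, and the forms in the members' transcript models are shown because the results below are read against it. A perfect stem of 6 base pairs starting with GG, around a 4-base loop starting with TTT, was found in 44 members (GENCODE M21 transcripts, written as DNA, 5′ to 3′). The 16 bases of the stem-loop are in capitals and 7 flanking bases on either side are in lower case.
Hist1h1e: acccaaaGGCTCTTTTCAGAGCCacccaca
Hist1h2bb: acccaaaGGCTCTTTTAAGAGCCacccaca
Hist2h2ac: ccaaaaaGGCTCTTTTTAGAGCCaccaaat
Hist1h4d: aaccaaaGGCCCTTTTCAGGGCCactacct
Hist1h4j: ccctaaaGGTCCTTTTCAGGACCaccacat
Hist2h4: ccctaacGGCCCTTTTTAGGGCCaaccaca
The form in Hist1h1e was the commonest, in 26 members, and was found in 3 of the other genes among 55450 searched. The form in Hist1h2bb was in 6 members and that in Hist2h2ac in 1. H4 genes carried their own forms, 7 with that of Hist1h4d, 2 with that of Hist1h4j and 2 with that of Hist2h4. The remaining 26 members had no perfect match in their model.

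The promoters of the classes also differ in sequence. RefSeq promoters (GRCm38.p6, 250 bases before to 50 after the start) were matched for 62 members and searched on both strands for TATAAA, for CCAAT, for the octamer ATTTGCAT, for the H1 box AAACACA and for GGTCCG, the core of an H4 promoter element. None of these words contains another. TATAAA was in 56.5% of member promoters and 13.6% of 32851 promoters in all. CCAAT was in every H1, H2A, H2B and H3 promoter and in 25.0% of H4 promoters, against 37.4% of all promoters. The octamer occurred in 7 of 18 H2A and 6 of 16 H2B promoters, in no promoter of the other classes, and in 1.74% of all promoters. Neighbouring H2A and H2B promoters can overlap, as in Hist1h2ah with Hist1h2bk, Hist1h2ae with Hist1h2bg and Hist1h2aa with Hist1h2ba. A single octamer can then be counted for both genes. The H1 box was in 5 of 6 H1 promoters and 7.18% of all, and GGTCCG was in 11 of 12 H4 promoters and 8.25% of all. A match is a description of letters and not a bound site. These 4 promoters are shown because their genes carry the contrasts below, with the words found in capitals.
Hist1h1b, chr13:21780576-21780875, minus strand: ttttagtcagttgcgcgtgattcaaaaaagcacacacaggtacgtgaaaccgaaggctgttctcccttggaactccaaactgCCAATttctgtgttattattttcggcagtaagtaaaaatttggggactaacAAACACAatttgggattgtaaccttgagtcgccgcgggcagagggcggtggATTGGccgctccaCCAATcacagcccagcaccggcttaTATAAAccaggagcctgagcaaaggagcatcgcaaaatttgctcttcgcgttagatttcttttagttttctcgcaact
Hist2h2ac, shared with Hist2h2be, chr3:96220831-96221130, minus strand: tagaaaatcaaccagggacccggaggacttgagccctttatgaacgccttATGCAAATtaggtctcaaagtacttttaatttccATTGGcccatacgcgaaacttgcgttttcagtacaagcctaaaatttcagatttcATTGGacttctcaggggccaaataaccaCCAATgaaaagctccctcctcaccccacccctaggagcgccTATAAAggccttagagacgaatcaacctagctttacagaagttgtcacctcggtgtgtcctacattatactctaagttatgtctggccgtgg
Hist1h2ac, shared with Hist1h2bc, chr13:23683910-23684209, minus strand: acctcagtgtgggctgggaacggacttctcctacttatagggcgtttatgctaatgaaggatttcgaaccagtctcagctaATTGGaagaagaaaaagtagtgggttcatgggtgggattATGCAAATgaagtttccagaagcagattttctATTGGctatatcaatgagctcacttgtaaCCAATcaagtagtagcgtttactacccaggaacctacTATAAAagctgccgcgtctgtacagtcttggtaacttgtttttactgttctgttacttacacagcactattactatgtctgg
Hist1h4d, chr13:23581318-23581617, plus strand: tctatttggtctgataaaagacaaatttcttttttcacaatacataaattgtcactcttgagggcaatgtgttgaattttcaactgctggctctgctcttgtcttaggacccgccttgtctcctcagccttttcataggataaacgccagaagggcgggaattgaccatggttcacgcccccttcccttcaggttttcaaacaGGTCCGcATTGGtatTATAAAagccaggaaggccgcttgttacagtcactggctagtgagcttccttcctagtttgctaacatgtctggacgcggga

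The majority of tested histone genes were lower in Pbrm1 cKO cells, with lower genes in every class, and 1 gene was higher. DESeq2 tested 55 of the 70 members and called 32 lower and 1 higher at an adjusted p under 0.05, which is 58.2% and 1.82% of those tested. Over all 17474 genes tested, 15.2% were called lower and 15.9% higher. Of the members, 66 had a count in some library, and Hist1h2aj, Hist2h2aa1, Hist1h2br and Hist2h3c1 were at 0 in all 6. The remaining 11 had too few counts to be given an adjusted p. The median log2 fold change over the 66 was -1.26, against -0.000744 over all genes tested. In 6 of the 66, both groups were at the floor of 3 counts per library, so their fold changes are no measurement. Over the 44 members averaging at least 10 normalized counts the median was -1.46. In 38 tested members every Pbrm1 cKO library lay below every WT library, which held for 24.6% of all genes tested. Every Pbrm1 cKO library lay above every WT library in Hist1h1c, Hist3h2a, Hist1h2bc and Hist2h2be. The share of all genes tested for which this held is not given here, so no excess can be read from it. The 32 called lower and the 1 called higher were spread over the classes as 4 of 5 tested H1 genes lower, 3 of 12 H2A, 7 of 15 H2B with 1 higher, 8 of 11 H3 and 10 of 12 H4. The class medians, over members with a count, were -1.09 for H1, -0.81 for H2A, -0.97 for H2B, -1.52 for H3 and -1.22 for H4. Over members averaging at least 10 normalized counts they were -1.56, -1.38, -2.02, -1.52 and -1.33. The first H1 median includes the sparsely counted testis gene Hist1h1t. The order of the classes was not fixed. By edgeR, which left out sparsely counted members, the H1, H2A and H2B medians were -1.56, -1.35 and -2.01, so that H2B was the most negative class. Without Pbrm1 cKO replicate 1 the H2A median was -1.28, and without Pbrm1 cKO replicate 3 the H2B median was -1.67.

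**Figure D1:**
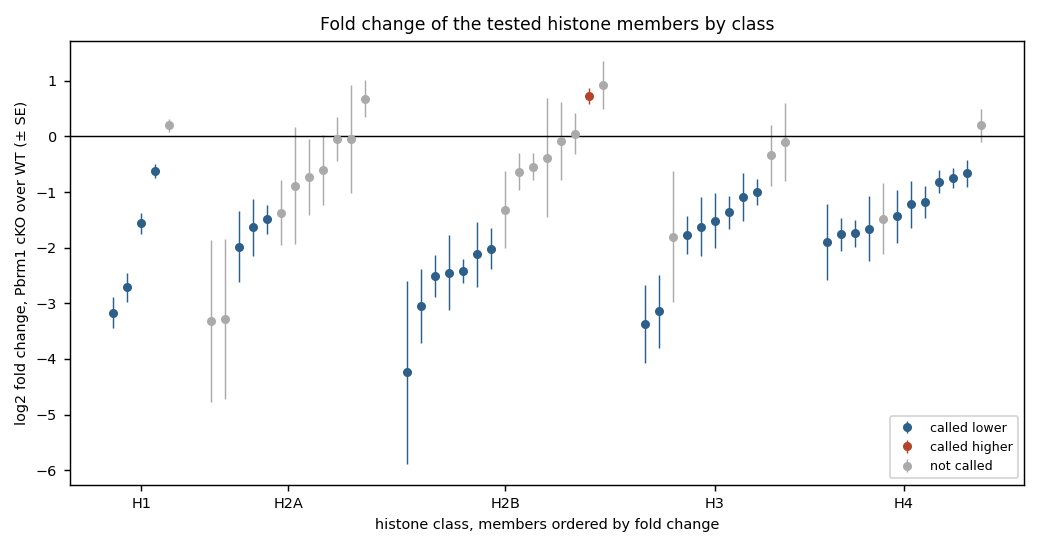
Log2 fold change (Pbrm1 cKO over WT, ± SE) of each of the 55 tested members, grouped by class and ordered within it. In every class most points lie below 0, and the single red point, among H2B, is Hist1h2bc at 0.72. Hist1h2bn, Hist1h2ah and Hist1h2an have all Pbrm1 cKO libraries at the floor of 3 counts, so the size of their fitted values is no measurement.

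The linker histone genes ranged from steep falls to a gene with slightly higher values. Hist1h1b, which encodes H1.5, fell most, with normalized counts of 175, 169.8 and 240.0 in WT and 20.7, 17.6 and 27.2 in Pbrm1 cKO (log2 fold change -3.17 ± 0.28 (SE), adjusted p = 3.42e-27). Hist1h1a, encoding H1.1, had 142, 151 and 144 in WT and 23.7, 24.8 and 17.8 in Pbrm1 cKO (log2 fold change -2.72 ± 0.27 (SE), adjusted p = 2.99e-22). The groups lay far apart in both genes. Hist1h1d, encoding H1.3, gave 222, 289.7 and 268 in WT and 85.8, 79.9 and 98.5 in Pbrm1 cKO (log2 fold change -1.56 ± 0.19 (SE), adjusted p = 1.65e-14). Hist1h1e, encoding H1.4 and the most abundant H1 gene per length in WT (67.8 ± 4.08 TPM, SD, n = 3), fell less, at 670.2, 759 and 655 in WT and 432, 435 and 489 in Pbrm1 cKO (log2 fold change -0.62 ± 0.12 (SE), adjusted p = 5.57e-06). Hist1h1c, encoding H1.2, had 456, 484 and 529.7 in WT and 551, 567 and 574 in Pbrm1 cKO, and its groups did not overlap but it was not called (log2 fold change 0.20 ± 0.12 (SE), adjusted p = 0.196). With the dependence of the fold change on gene length removed, it was called higher (log2 fold change 0.31, adjusted p = 0.0179). Hist1h1c made up 27.4% ± 1.37 (SD, n = 3) of all H1 normalized counts in WT and 49.1% ± 1.39 in Pbrm1 cKO. The testis gene Hist1h1t was at 0 in WT and at or under 4 counts in Pbrm1 cKO.

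**Figure D2:**
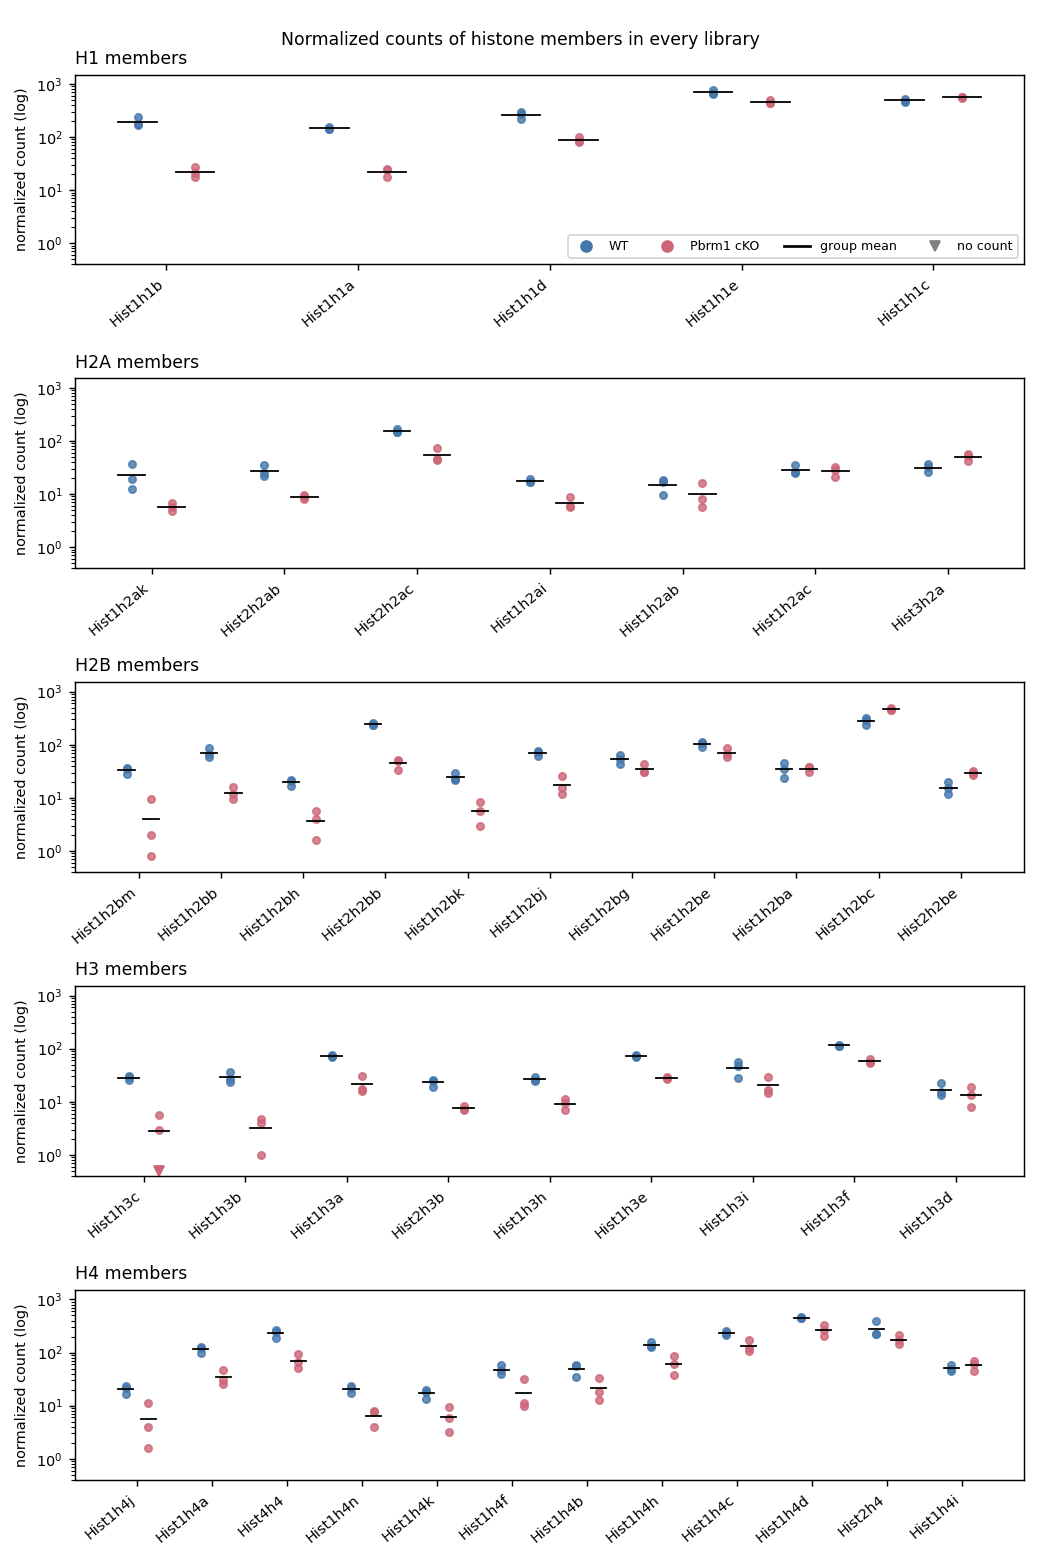
Normalized count (log axis) in each library for the 44 members averaging at least 10, 1 panel per class, ordered from lowest to highest fold change. WT points are blue, Pbrm1 cKO points red, bars are group means and triangles mark libraries with no count. Separation between the colours is widest at the left of each panel and closes or turns at the right, where Hist1h1c, Hist3h2a, Hist1h2bc and Hist2h2be stand.

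H2B, a core histone that pairs with H2A, held genes that moved in both directions. Hist2h2bb was the most abundant histone gene per length in WT (120.4 ± 10.4 TPM) and fell, at 261, 235 and 233 in WT and 33.5, 51.9 and 49.7 in Pbrm1 cKO (log2 fold change -2.42 ± 0.22 (SE), adjusted p = 1.11e-26). Hist1h2bb had 66.3, 85.5 and 59.5 in WT and 11.8, 9.59 and 15.95 in Pbrm1 cKO (log2 fold change -2.51 ± 0.38 (SE), adjusted p = 8.98e-10). Hist1h2bm had 36.3, 34.4 and 28.1 in WT and 1.97, 0.799 and 9.38 in Pbrm1 cKO (log2 fold change -3.05 ± 0.67 (SE), adjusted p = 4.63e-05). In each the groups were apart, although the Pbrm1 cKO counts of Hist1h2bm were low enough that replicate 3 exceeded the others several times over. Hist1h2bj fell, at 76.96, 62.2 and 72.4 in WT and 11.8, 15.2 and 25.3 in Pbrm1 cKO (log2 fold change -2.02 ± 0.36 (SE), adjusted p = 3.63e-07). Hist1h2bh had 17.1, 21.1 and 21.6 in WT and 3.95, 1.598 and 5.63 in Pbrm1 cKO (log2 fold change -2.45 ± 0.68 (SE), adjusted p = 0.00172). Hist1h2bk and Hist1h2bn were also called lower. The log2 fold change of Hist1h2bk was -2.12. Hist1h2bn was at or under 3 counts in every Pbrm1 cKO library, and against that floor it was at least 2.25-fold lower. That bound rests on WT replicate 3, since the WT counts were 3, 2 and 12, and without that library both groups are at the floor and no fold can be given. Without independent filtering its adjusted p was 0.0572.

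The single member called higher was Hist1h2bc, on chromosome 13 at chr13:23684199-23692908. It had 239, 314 and 294 in WT and 459, 454 and 488 in Pbrm1 cKO (log2 fold change 0.72 ± 0.14 (SE), adjusted p = 6.16e-06), and every Pbrm1 cKO library was above every WT library. Its share of H2B normalized counts was 28.5% ± 2.28 (SD, n = 3) in WT and 62.8% ± 3.93 in Pbrm1 cKO. It stayed called when any 1 library was left out, but not when a change beyond 0.58 on the log2 scale was required. Hist2h2be had 11.8, 19.98 and 15.1 in WT and 31.6, 27.2 and 30.03 in Pbrm1 cKO with no overlap and was not called by DESeq2 (log2 fold change 0.92 ± 0.44 (SE), adjusted p = 0.0955), but was by edgeR (adjusted p = 0.02) and by limma voom (adjusted p = 0.0413). Hist1h2be had 89.8, 111 and 109 in WT and 59.2, 66.3 and 87.3 in Pbrm1 cKO (log2 fold change -0.54 ± 0.25 (SE), adjusted p = 0.0809), and edgeR called it lower with an adjusted p of 0.0453, as did DESeq2 without Pbrm1 cKO replicate 3 (0.0469). The testis gene Hist1h2ba overlapped between groups at 23.5, 34.4 and 45.4 in WT and 30.6, 38.4 and 37.5 in Pbrm1 cKO (log2 fold change 0.05 ± 0.37 (SE), adjusted p = 0.946). Hist1h2bl, Hist1h2bg, Hist1h2bq and Hist1h2bf were not called, at log2 fold changes of -1.32, -0.63, -0.39 and -0.08.

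H2A was mostly sparsely counted, and 12 of its 20 genes could be tested. Hist2h2ac was the most abundant per length in WT (55.6 ± 2.69 TPM) and fell, at 146, 166 and 148 in WT and 43.4, 45.5 and 75.1 in Pbrm1 cKO (log2 fold change -1.49 ± 0.26 (SE), adjusted p = 7.72e-08). Hist1h2ak had 19.2, 12.2 and 36.8 in WT and 6.91, 4.79 and 5.63 in Pbrm1 cKO (log2 fold change -1.99 ± 0.64 (SE), adjusted p = 0.00826). The WT counts of Hist1h2ak spread widely, and its adjusted p was 0.145 without WT replicate 3 and 0.0632 without Pbrm1 cKO replicate 2. Hist2h2ab had 21.4, 24.4 and 35.7 in WT and 8.88, 7.99 and 9.38 in Pbrm1 cKO (log2 fold change -1.64 ± 0.51 (SE), adjusted p = 0.00594), and its adjusted p was 0.073 without WT replicate 3. Of the longer genes, Hist1h2ac overlapped between groups at 24.6, 34.4 and 25.9 in WT and 28.6, 20.8 and 32.8 in Pbrm1 cKO (log2 fold change -0.05 ± 0.40 (SE), adjusted p = 0.945). Hist3h2a lay higher in every Pbrm1 cKO library, at 36.3, 25.5 and 32.4 in WT and 41.4, 56.7 and 52.5 in Pbrm1 cKO (log2 fold change 0.68 ± 0.33 (SE), adjusted p = 0.111), and was called higher by edgeR (adjusted p = 0.0366). Hist1h2ai, at -1.38, was not called by DESeq2 (adjusted p = 0.0575) and was called lower by edgeR (0.00818) and limma voom (0.0109). The others tested were not called. Hist1h2ah and Hist1h2an were at or under 3 counts in Pbrm1 cKO, and Hist2h2aa2, Hist1h2ad, Hist1h2ab and Hist1h2ae had log2 fold changes of -0.89, -0.73, -0.61 and -0.05.

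H3 genes, which encode the nucleosome core histone that carries many of the regulatory tail marks, fell in 8 of 11 tested, and all 11 had a negative fold change. Hist1h3c had 29.9, 25.5 and 30.3 in WT and 2.96, 0 and 5.63 in Pbrm1 cKO (log2 fold change -3.37 ± 0.71 (SE), adjusted p = 1.94e-05). Hist1h3b had 26.7, 36.6 and 23.8 in WT and 0.987, 3.995 and 4.69 in Pbrm1 cKO (log2 fold change -3.15 ± 0.65 (SE), adjusted p = 1.21e-05). The groups were far apart for both, with Pbrm1 cKO counts in single digits. Hist1h3a, the most abundant H3 gene per length in WT (25.5 ± 0.764 TPM), fell, at 68.4, 76.6 and 72.4 in WT and 17.8, 15.98 and 30.03 in Pbrm1 cKO (log2 fold change -1.78 ± 0.34 (SE), adjusted p = 2.24e-06). Hist1h3f had 119.7, 114 and 112 in WT and 57.2, 52.7 and 63.8 in Pbrm1 cKO (log2 fold change -0.998 ± 0.23 (SE), adjusted p = 9.08e-05). Hist1h3e, Hist1h3h and Hist2h3b were called lower at -1.37, -1.52 and -1.63. Hist1h3i had overlapping groups at 47.03, 27.7 and 56.2 in WT and 14.8, 29.6 and 16.9 in Pbrm1 cKO (log2 fold change -1.09 ± 0.43 (SE), adjusted p = 0.0417). Among these, the adjusted p of Hist1h3h was 0.0561 without WT replicate 3 and 0.0672 without Pbrm1 cKO replicate 1. That of Hist2h3b was 0.06, 0.0501, 0.052 and 0.0592 without WT replicates 2 and 3 and Pbrm1 cKO replicates 1 and 2. For Hist1h3i it was 0.0997 and 0.221 without WT replicates 1 and 3, and 0.201 and 0.165 without Pbrm1 cKO replicates 1 and 3, and it was 0.158 with the length trend removed and 0.0679 without independent filtering. Hist1h3g (-1.80), Hist1h3d (-0.34) and Hist2h3c2 (-0.11) were not called, with adjusted p-values of 0.26, 0.715 and 0.935.

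H4 was the class with the highest WT level per length and had 10 of 12 tested genes called lower. Hist1h4d, its most abundant gene (74.5 ± 1.39 TPM), had 440.4, 469 and 439.9 in WT and 208, 268 and 328 in Pbrm1 cKO (log2 fold change -0.75 ± 0.17 (SE), adjusted p = 1.38e-04). Hist4h4, which lies alone on chromosome 6 at chr6:136801553-136804415, fell, at 191, 269 and 246 in WT and 52.3, 65.5 and 93.8 in Pbrm1 cKO (log2 fold change -1.74 ± 0.24 (SE), adjusted p = 2.79e-11). Hist1h4a had 97.3, 121 and 126 in WT and 30.6, 25.6 and 45.98 in Pbrm1 cKO (log2 fold change -1.76 ± 0.29 (SE), adjusted p = 2.36e-08). All groups in these genes were apart. Hist1h4h had 160.3, 127 and 133 in WT and 38.5, 59.9 and 87.3 in Pbrm1 cKO (log2 fold change -1.18 ± 0.29 (SE), adjusted p = 3.34e-04). Hist1h4c had 234, 255 and 209.7 in WT and 109, 119.9 and 169.8 in Pbrm1 cKO (log2 fold change -0.81 ± 0.21 (SE), adjusted p = 6.09e-04). In both, Pbrm1 cKO replicate 3 was the highest of its group, as it was in Hist1h4d and Hist4h4. Hist1h4j had 21.4, 16.6 and 23.8 in WT and 3.95, 1.598 and 11.3 in Pbrm1 cKO (log2 fold change -1.90 ± 0.69 (SE), adjusted p = 0.0219), and its adjusted p reached 0.0569, 0.0567 and 0.11 without WT replicates 1, 2 and 3 and 0.117 and 0.147 without Pbrm1 cKO replicates 1 and 2. Hist1h4i overlapped between the groups, at 49.2, 58.8 and 45.4 in WT and 62.2, 44.7 and 69.4 in Pbrm1 cKO (log2 fold change 0.20 ± 0.30 (SE), adjusted p = 0.694).

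The call of Hist2h4 was lost when any of 3 single libraries was left out. It had 221, 222 and 392 in WT and 148, 169 and 210.2 in Pbrm1 cKO (log2 fold change -0.66 ± 0.25 (SE), adjusted p = 0.0265), and without WT replicate 3 the log2 fold change was -0.34 with an adjusted p of 0.233. Without Pbrm1 cKO replicates 1 and 2 the adjusted p of Hist2h4 was 0.173 and 0.127. It was also not called by edgeR (0.0515) or with the length trend removed (0.061). For Hist1h4f, at -1.44, it was 0.053 with WT replicate 1 left out, and 0.0964 and 0.105 with Pbrm1 cKO replicates 1 and 2 left out in turn. For Hist1h4b, at -1.22, it was 0.105 and 0.0939 without WT replicates 2 and 3, 0.124 and 0.109 without Pbrm1 cKO replicates 1 and 2, and 0.0606 with the length trend removed. For Hist1h4n, at -1.66, it was 0.07 and 0.0887 without WT replicates 2 and 3 and 0.101 without Pbrm1 cKO replicate 1. Hist1h4k, at -1.48, was not called by DESeq2 (adjusted p = 0.0627) but was by edgeR (0.0179) and limma voom (0.02).

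Summed over its genes, every class was lower in Pbrm1 cKO, by different amounts. H3 had the lowest remaining share, with a summed normalized count of 444 ± 17.1 (SD, n = 3) in WT and 174 ± 19.4 in Pbrm1 cKO, or 39.2% of WT. H4 went from 1659 ± 111 to 859 ± 214 (51.8%), and H2A from 335 ± 8.94 to 182 ± 33.7 (54.4%). H1 went from 1785 ± 103 to 1149 ± 51.0 (64.4%), and H2B from 987 ± 60.6 to 746 ± 74.9 (75.6%). A single gene carried much of what remained in H1 and H2B, since without Hist1h1c the H1 sum stood at 45.2% of WT and without Hist1h2bc the H2B sum at 39.7%, both genes being left out after their values were seen. In summed TPM the classes stood at 41.6% of WT for H3, 47.5% for H2A, 57.3% for H4, 59.4% for H2B and 65.7% for H1. Every gene stands relatively higher in Pbrm1 cKO by TPM than by normalized counts, so these percentages are not on the scale of those above. In no class did the summed counts of the groups overlap. With 3 libraries against 3 these sums were not tested, and the differences between classes were not tested. On the per-length scale the WT order was H4 (356 ± 12.5 TPM), H2B (298 ± 1.22), H1 (220 ± 10.9), H3 (124 ± 8.69) and H2A (113 ± 5.57), and only H3 and H2A overlapped between neighbours.

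**Figure D3:**
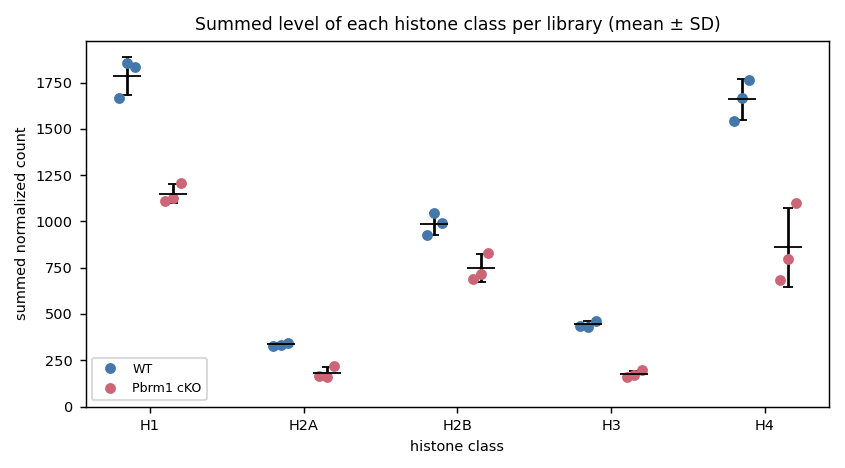
Summed normalized count of all genes of each class, 1 point per library, with mean and SD bars (n = 3 per group). In every class the 3 Pbrm1 cKO libraries lie below the 3 WT libraries, and the H4 points of Pbrm1 cKO spread most, from 685 to 1098.

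The members were also read by their position in the genome. With gaps over 100 kb splitting them, the members formed 8 blocks. The first large block on chromosome 13, chr13:21715763-21837530, held 19 genes. Of its 13 tested genes 8 were called lower, and its summed normalized count stood at 23.1% of the WT mean. The second, chr13:23531050-23764406, held 29 genes and stood at 68.4%, with 16 of 27 tested genes called lower and Hist1h2bc higher. Split at gaps over 50 kb, it gave parts of 16 and 13 genes at 55.8% and 84.6%. The part of 13 genes held Hist1h2bc and Hist1h1c. The Hist2 block, chr3:96219865-96270132, held 10 genes with 5 of 8 tested called lower and stood at 44.0%. The 3 Hist3 genes on chromosome 11 had 1 tested gene, Hist3h2a, which DESeq2 did not call and edgeR called higher. The Hist1h2ba and Hist1h2aa block had none called by DESeq2. Over all genes tested, 15.2% were called lower and 15.9% higher, and differences between or within blocks were not tested.

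Many H2A and H2B genes start next to each other and run apart. There were 14 such pairs, each of 1 H2A and 1 H2B gene, with 172 to 305 bases between their models. Both genes could be tested in 7 pairs, and both were called lower in 1, Hist1h2ak with Hist1h2bn. In Hist1h2ah with Hist1h2bk both values were negative and the H2B gene was called. In Hist1h2bl with Hist1h2ai the values were alike, -1.32 and -1.38, with neither called by DESeq2 and Hist1h2ai called lower by edgeR and limma voom. In 2 pairs both genes averaged at least 10 normalized counts. Hist2h2ac fell (-1.49) while its partner Hist2h2be stood at 0.92. In the other, Hist1h2ac was at -0.05 and Hist1h2bc rose (0.72). Both shared promoters, printed above, hold an octamer, and the difference between partners was not tested.

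The members' fold changes were then read against the transcript ends. In 22 members the model ends within 100 bases of the stem-loop, and 12 of the 16 tested were called lower. Their summed normalized count in Pbrm1 cKO was 33.0% of WT, with a median log2 fold change of -1.44 (-1.78 over those averaging at least 10). In 22 members the model runs over 100 bases past it, and 10 of 19 tested were called lower. These stood at 66.8% of WT with a median of -0.62 (-0.66 over those averaging at least 10). Of the 26 with no perfect stem-loop in the model, 10 of 20 tested were called lower and 1 higher. They stood at 58.5% of WT with a median of -1.57 (-1.57 over those averaging at least 10). A poly(A) signal (AATAAA or ATTAAA) within the last 50 bases of the model was found in 15 members, of which 5 of 11 tested were called lower. The 44 tested members without that signal had 27 called lower and 1 higher. The signal did not separate H4, where 5 of 6 tested genes with it were called lower. By length, 16 tested members with a merged exon length above 1000 bases had 7 called lower and 1 higher and stood at 77.4% of WT, whereas 39 shorter ones had 25 lower, none higher and stood at 35.0%. Per length, in summed TPM, the longer members stood at 97.1% of WT with overlapping libraries, from 319 to 352 TPM in WT and 311 to 346 in Pbrm1 cKO, and the shorter ones at 39.3%. In summed normalized counts the longer members did not overlap, at 2775 to 3176 in WT and 2177 to 2584 in Pbrm1 cKO. Every gene stands relatively higher in Pbrm1 cKO by TPM than by normalized counts. Pbrm1 averaged 1472 and 436 normalized counts in WT and Pbrm1 cKO, and 31.4 and 10.7 TPM. Over all genes tested, 15.2% were called lower and 15.9% higher. The groupings by transcript end, signal and length overlap, and the differences between them were not tested.

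**Figure D4:**
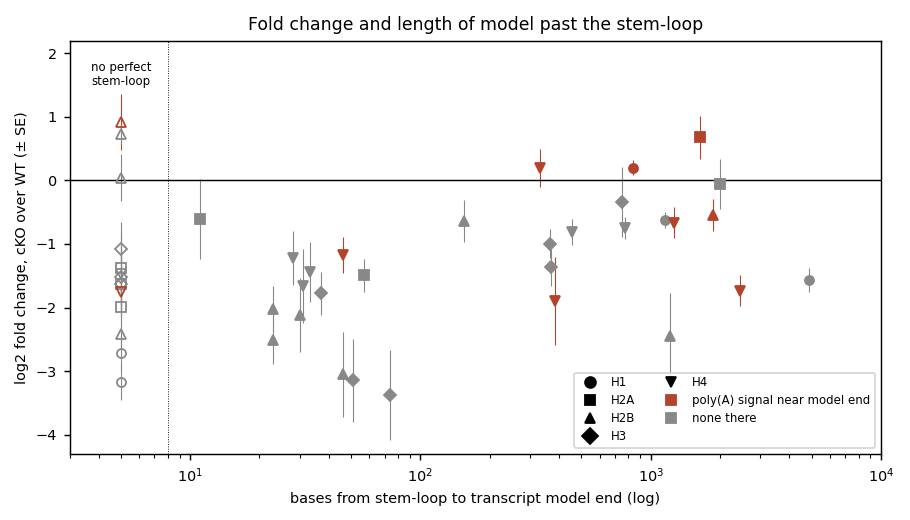
Log2 fold change (± SE) of the 44 members averaging at least 10 normalized counts against the bases between stem-loop and transcript model end (log axis). Open symbols at the left have no perfect stem-loop, shapes give the class and red marks a poly(A) signal near the model end. Members whose model ends within 100 bases all lie below 0, while Hist3h2a, Hist1h1c and Hist1h4i lie above it further right and Hist4h4 and Hist1h1d, with 2445 and 4884 bases, lie well below it.

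Several factors that switch the histone genes on were lower. Of 12 tested genes in the transcription list, 6 were called lower and 2 higher, beside 15.2% and 15.9% of all genes tested. Npat, the activator that gathers at histone loci, had 919, 843 and 784 in WT and 531, 531 and 507 in Pbrm1 cKO (log2 fold change -0.70 ± 0.11 (SE), adjusted p = 1.40e-08). Its partner Casp8ap2 had 1035, 959 and 791 in WT and 656, 633 and 633 in Pbrm1 cKO (log2 fold change -0.53 ± 0.13 (SE), adjusted p = 2.16e-04). Cyclin E2 (Ccne2), which drives CDK2 at the entry to S phase, fell furthest of the list, at 614, 637 and 679.9 in WT and 116, 87.1 and 115 in Pbrm1 cKO (log2 fold change -2.60 ± 0.16 (SE), adjusted p = 5.03e-59). Ccne1, at -1.65, and Cdk2, at -0.63, were also lower. E2f1 was lower at -0.70 (adjusted p = 0.0221), and its call was lost without any single library except WT replicate 2, with adjusted p-values of 0.0539 to 0.109. E2f2 was at or under 3 counts in every WT library and at least 4.33-fold higher in Pbrm1 cKO against that floor, and its adjusted p was 0.117 without Pbrm1 cKO replicate 2.

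Of the factors that form the histone 3′ end, the one that binds the stem-loop fell. Slbp, the stem-loop binding protein, fell, at 1132, 1188 and 1083 in WT and 660.0, 747 and 749 in Pbrm1 cKO (log2 fold change -0.66 ± 0.11 (SE), adjusted p = 1.45e-08). Lsm11, a U7 snRNP protein, was lower at -0.49 (adjusted p = 0.00834), and its call was lost without WT replicate 1 (0.0528) and without Pbrm1 cKO replicates 1 (0.0535) and 3 (0.074). Lsm10, its partner, was at -0.12 and not called (adjusted p = 0.664). Of 17 tested genes of the processing list 3 were lower and 3 higher, and of 12 in the decay list none was lower and 5 were higher, beside 15.2% lower and 15.9% higher over all genes tested. Among 22 chaperone and assembly genes 10 were lower and 2 higher. Asf1b, Chaf1b, Chaf1a, Tonsl, Mms22l and Mcm2, which deposit histones or act at the replication fork, were lower at -1.82, -1.34, -1.10, -1.03, -0.88 and -0.59. The call of Tonsl was lost without Pbrm1 cKO replicate 2 (adjusted p = 0.0611). The replication-independent variants, which are made through the cycle from polyadenylated mRNA, had 3 of 11 tested called lower and none higher, and their sum stood at 86.6% of WT. H2afz, encoding H2A.Z, fell by 0.96 on the log2 scale and H3f3a, encoding H3.3, by 0.74.

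Genes of S phase were lower too. Of 48 listed, 43 were called lower and none higher, beside 15.2% and 15.9% of all genes tested. Their median log2 fold change was -0.71, and their sum stood at 61.9% of WT, beside 59.7% for the histone members. The ratio of summed histone counts to summed S phase counts was 0.143 ± 0.0110 (SD, n = 3) in WT and 0.137 ± 0.0179 in Pbrm1 cKO, and the libraries overlapped. The ratio to the replication-independent variants was 0.510 ± 0.0139 in WT and 0.351 ± 0.0306 in Pbrm1 cKO, with no overlap. The ratio to the RNAs without a poly(A) tail went the other way, at 0.0231 ± 0.00157 in WT and 0.0512 ± 0.0138 in Pbrm1 cKO, also with no overlap. The differences between the groups in these ratios were not tested.

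**Figure D5:**
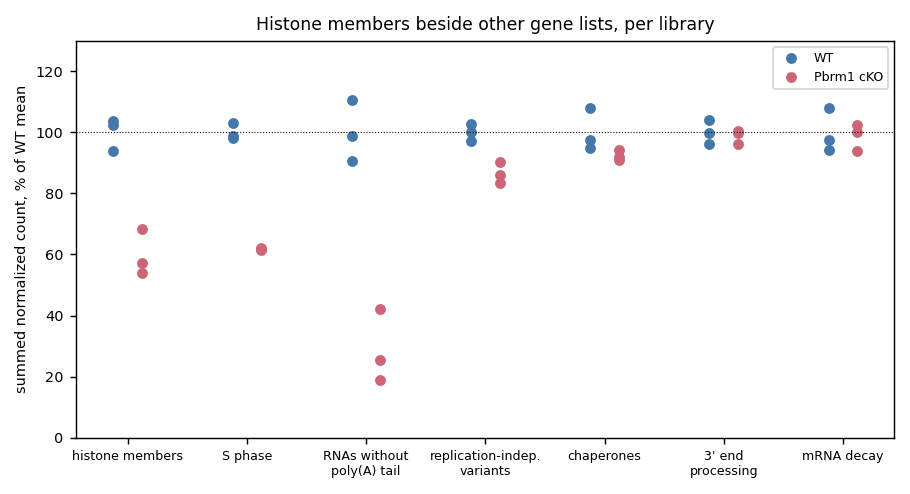
Summed normalized count of the histone members and of 6 other gene lists, each as percent of its own WT mean, 1 point per library. The Pbrm1 cKO points of the histone members spread around their mean of 59.7%, with sums from 2808 to 3553, those of the S phase list lie close together around 61.9%, and those of the RNAs without a poly(A) tail lower. Those of the 3′ end processing list lie within the WT range, as do those of the decay list except replicate 3, at 16166 just below the lowest WT sum of 16242.

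Near-identical copies limit some of these values. The authors' counting dropped reads that map to several places, so a copy with few unique bases is undercounted. Of the 70 members, 17 had under 20% of their 50-base windows free of a match in another gene, and 4 of those, Hist1h2bn, Hist1h3h, Hist1h3i and Hist1h4n, were among the called. Of the 14 members with at least 80% of windows unique, 12 were tested, 8 were called lower and none higher, with a median log2 fold change of -0.70. Over all genes tested, 15.2% were called lower and 15.9% higher.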

How the data were processed

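The authors trimmed reads with cutadapt, aligned them with HISAT2 to GRCm38.p5 (per the labels) and deposited raw counts per gene made with featureCounts 1.6.4, reverse stranded, on GENCODE M18 (per the file headers), so multi-mapped and multi-overlapping reads were left out. No column belongs to another sample. Genes were named from GENCODE M21. Counts of all genes were fitted with DESeq2 1.42.0 (Wald test, median-of-ratios size factors, Benjamini-Hochberg adjustment, called at adjusted p under 0.05) in R 4.3.3, with no covariate. The fitting code was first checked on simulated counts with known changes. The tool follows the study's methods but the threshold does not: the study's calls used a minimum fold change with a raw and an adjusted p limit. TPM was computed from counts and the deposited gene lengths. Fold change is Pbrm1 cKO over WT. Named members were, per class, the 3 highest by TPM, the 2 lowest and 2 highest fold changes at a mean of at least 10, any called higher and any model above 1000 bases, and pathway genes called at 0.58 or more, with Slbp, Npat, Casp8ap2, Lsm10 and Lsm11. Others were named after their values were seen. Members and lists were chosen with earlier results of these data known. Alternatives were edgeR 4.0.16, limma 3.58.1, other normalizations, filters and thresholds, a replicate block and leaving out each library. The window search for copies covered annotated transcripts only.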

Additional observations from a re-analysis of the deposited data

How the results depend on the processing

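No member called lower or higher changed sign under any of the 15 alternatives, and of the 33 called members 22 kept their call under all of those that tested them other than the fold test, 14 under all. The count of members called lower was 14 when a change beyond 0.58 on the log2 scale was required (adjusted p under 0.1) and 22 to 31 when 1 library was left out. The count called higher was 3 by edgeR, 2 by limma voom, 2 with the length trend removed, 2 at an adjusted p under 0.1, 0 in the fold test and 1 without any single library. Among all genes, 1262 passed the fold test, against 5432 in the reported fit, and 3713 to 5500 were called with 1 library left out.

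The H1, H2A and H2B medians became more negative where sparsely counted genes were dropped. The H1 median was -1.56 by edgeR, -1.56 by limma voom, -1.57 with filterByExpr and -1.56 at a mean normalized count of at least 10. The H2A median was -1.35, -1.34, -1.38 and -1.38 in the same order, and the H2B median -2.01, -2.05, -2.02 and -2.02. With the length trend removed H2A was at -0.57 and H3 at -1.25. Leaving out 1 library gave -1.16 to -1.02 for H1, -1.28 to -0.67 for H2A, -1.67 to -0.80 for H2B, -1.56 to -1.37 for H3, -1.66 to -0.96 for H4 and -1.44 to -1.16 for all members. Members with at least 80% unique windows, chosen as a group after seeing the data, had 8 called lower, 0 higher and a median of -0.70. In CPM instead of TPM the H1 sum in Pbrm1 cKO was 65.2% of WT against 65.7%, and the H2B sum 76.6% against 59.4%. The H1 member left out at a mean of at least 10 was Hist1h1t, and TPM divides by gene length whereas CPM does not. Other causes of these shifts were not tested.

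Same-numbered libraries correlated at 0.114, -0.0515 and 0.0028 in their deviations from the group means. Differently numbered ones ranged from -0.0808 to 0.113. Deviations from a mean of 3 libraries are tied to each other, so this cannot show whether the numbers mark pairs. With a replicate block in DESeq2, 25 members were called lower. Of the other genes named, E2f1, E2f2 and Tonsl lost their calls, with adjusted p-values of 0.133, 0.0705 and 0.0525.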
